A study of Mus musculus with 15 samples.

Results

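The genes described here are 9 genes of antigen presentation by MHC class II in mouse liver: H2-Aa, H2-Ab1, H2-Eb1, H2-DMa, H2-DMb1, H2-Oa, H2-Ob, Cd74 and Ciita. Every probe set annotated to 1 of them was taken, which gave 14 of the 22626 probe sets left after controls, with no choice by signal. RNA from 15 liver samples of mice aged 16 months was hybridised to Affymetrix arrays, with 1 array per sample. The samples were 6 tumours of homozygous Mdr2-KO mice, 6 samples of non-tumorous liver tissue of homozygous Mdr2-KO mice and 3 livers of heterozygous Mdr2-KO mice. By the labels, mice 3 and 4 gave a tumour and a non-tumorous sample each, mice 5 and 6 gave 2 tumours (5-1 and 5-2, 6-1 and 6-2) and a non-tumorous sample each, and the non-tumorous livers of mice 1 and 2 had no tumour sample here. Mdr2, now called Abcb4, is the canalicular flippase through which hepatocytes put phosphatidylcholine into bile. All 3 groups carry the disrupted allele, because the controls are heterozygous, so no value below comes from a liver with only intact copies. Tumours of the same mouse are not separate animals, yet they entered the fit nearly as such, because the estimated correlation within a mouse was close to 0. Strain and sex are not given in the sources used here.

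MHC class II molecules carry peptides from endocytosed proteins to the cell surface, where CD4 T cells read them. The molecule is a pair of an alpha and a beta chain, which in the mouse are encoded by H2-Aa with H2-Ab1 and by H2-Ea with H2-Eb1. Cd74, the invariant chain, occupies the groove on the way to the endosome, H2-DM (H2-DMa with H2-DMb1 or H2-DMb2) exchanges its remnant for peptide, and H2-O (H2-Oa with H2-Ob) modulates H2-DM. Ciita is the co-activator that switches on the whole set, through a complex that sits on short promoter elements called the X box and the Y box. In the liver class II is known mainly from dendritic cells, B cells, Kupffer cells and other macrophages, and other cells can show it in inflammation.

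The promoters of the genes are shown because class II genes are known to share the elements that Ciita acts through. RefSeq promoter windows of assembly GRCm38.p6, from 250 bases before to 50 bases after a gene's start, were read for 6 of the 9 genes. The letters GNAAC, taken from the X box, followed by ATTGG, the core of the Y box, between 25 and 40 bases further on, were searched on both strands. Their letters do not overlap at that spacing. This pattern was chosen after the sequences had been seen. It was in the windows of 5 of the 6 genes and in 2.67% of all 32851 windows, while ATTGG alone was in 37.4% and GNAAC alone in 84.8%. Each line gives 100 bases read along the gene's strand, and the capitals mark the pattern.
H2-Aa, chr17:34287844-34287943, minus strand: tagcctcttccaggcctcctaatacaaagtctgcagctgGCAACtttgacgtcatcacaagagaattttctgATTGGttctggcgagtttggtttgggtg
H2-Eb1, chr17:34305747-34305846, plus strand: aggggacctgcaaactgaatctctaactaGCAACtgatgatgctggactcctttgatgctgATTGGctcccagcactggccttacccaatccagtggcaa
H2-DMb1, chr17:34153071-34153170, plus strand: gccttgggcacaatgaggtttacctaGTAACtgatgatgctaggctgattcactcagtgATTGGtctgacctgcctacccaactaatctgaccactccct
H2-Oa, chr17:34092259-34092358, plus strand: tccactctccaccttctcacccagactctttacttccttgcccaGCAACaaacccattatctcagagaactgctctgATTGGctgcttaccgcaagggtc
H2-Ob, chr17:34238785-34238884, plus strand: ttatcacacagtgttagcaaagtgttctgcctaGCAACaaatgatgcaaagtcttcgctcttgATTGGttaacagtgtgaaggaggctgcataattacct

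In these 5 promoters the first pattern began between 76 bases (H2-Oa) and 94 bases (H2-DMb1) before the start, and the spacing to ATTGG was 30 to 33 bases. The letters were not found in either of the 2 windows listed for H2-DMa, and a match or its absence describes these letters only. H2-Aa, H2-Ab1, H2-Eb1, H2-DMa, H2-DMb1, H2-Oa and H2-Ob lie within chromosome 17, from H2-Oa (34092379 to 34095234) to H2-Eb1 (34305867 to 34316674) in GRCm38.p6. Ciita is on chromosome 16 (10480014 to 10531064) and Cd74 on chromosome 18 (60803849 to 60812652).

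All values are MAS5 signals, an intensity per probe set on a linear scale, and the number of arrays limits their precision. The trimmed mean was 150.1 on every array, the median signal lay between 35.8 and 51.2 and the 40th percentile, used here as a mark of dim signal, between 22.5 and 32.9. Abcb4, a check of the genotype, had 122.5 to 681.1 in tumours and 177.4 to 305.7 in non-tumorous knockout livers, against 778.9 to 1006.4 in heterozygous livers, with no overlap of either knockout group with the controls, and whether its probe set lies in the disrupted stretch is not known here. The actin ratio, that of the 3' to the 5' probe set and a measure of RNA integrity and labelling, was 1.51 to 2.06 in tumours and 1.74 to 2.74 in non-tumorous knockout livers, against 2.55 to 3.37 in heterozygous livers. It therefore moved with the groups, and its part in the differences from heterozygous livers was not tested beyond the covariate fit given below. Probe sets differ in affinity, so signals are compared between samples and not between genes.

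The array held 2 probe sets for H2-Aa, 3 for H2-Ab1, 1 each for H2-Eb1, H2-DMa, H2-Oa and Cd74, and 2 for Ciita. Another 2 are annotated to both H2-DMb1 and H2-DMb2 and 1 to both H2-Ob and the gene model Gm20506, so these 3 cannot be given to a single gene. Of the 14 probe sets, 12 exceeded the array's 40th percentile on 3 arrays or more and were tested, and 7 were above it on every array: those of H2-Aa, H2-Ab1, H2-DMa and Cd74. The other 2, both of Ciita, did not pass and were not tested.

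Most class II probe sets were highest on average in tumours, intermediate in non-tumorous knockout livers and lowest in heterozygous livers, but only 1 of the 36 differences between groups passed the test adjusted over all probe sets. On the scale of log2(signal + 9.1), 12 of 12 tested probe sets were higher on average in tumours than in heterozygous livers, with a median change of 1.23, against -0.0045 over all 16128 probe sets. Only 1 of the 12 passed the test (limma, Benjamini-Hochberg adjusted p under 0.05 over all probe sets), where 6.36% of all probe sets passed. In non-tumorous knockout livers 12 of 12 were higher on average than in heterozygous livers, with a median of 0.88 against -0.015 over all probe sets, and 0 passed, where 1.82% of all probe sets passed. In tumours 11 of 12 were higher on average than in non-tumorous knockout livers, with a median of 0.35 against 0.020, and 0 passed, where 0.124% of all probe sets passed. Probe sets of a gene, and genes induced together, are not independent, so these counts of direction are descriptions. The comparisons share groups and are not separate support for each other.

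At an unadjusted p under 0.05, 8 of the 12 differed between tumours and heterozygous livers (21.4% of all probe sets), 3 of the 12 between non-tumorous knockout and heterozygous livers (15.5%), and 0 of the 12 between tumours and non-tumorous knockout livers (10.0%). Whether the lowest sample of the first group lay above the highest of the second was counted as well. This held for 3 of 12 probe sets in tumours against heterozygous livers (5.38% of all probe sets) and for 4 of 12 in non-tumorous knockout against heterozygous livers (7.73%). It held for 0 of 12 in tumours against non-tumorous knockout livers (0.161%). Of the 3 in tumours, the H2-DMb1 or H2-DMb2 probe set 1418638_at and H2-Oa exceeded the 40th percentile on 0 heterozygous arrays. They passed the filter only through knockout arrays, so their separation from heterozygous livers was partly selected. In bulk liver RNA, more cells that express class II and more class II RNA per cell cannot be told apart.

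**Figure D1:**
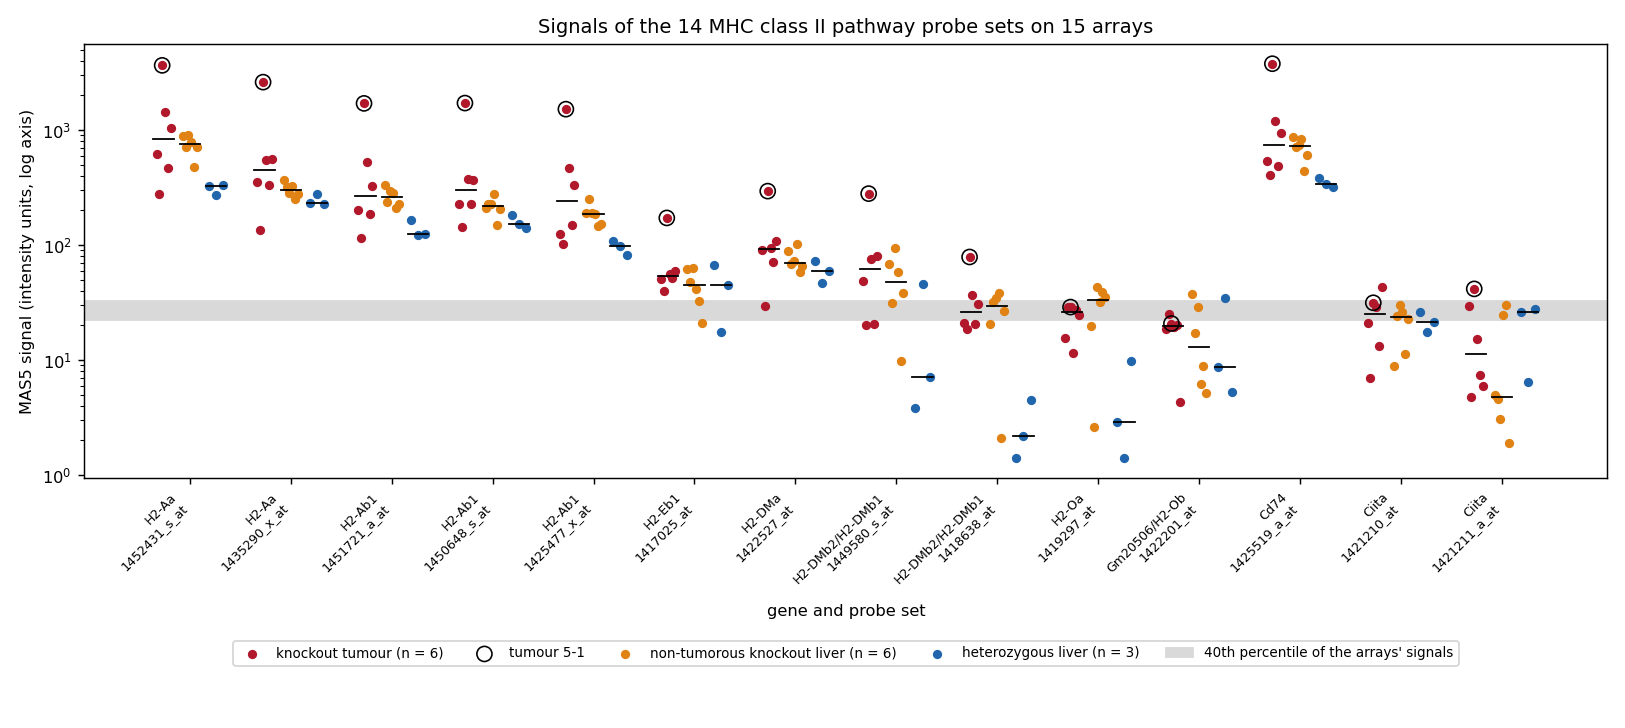
MAS5 signal (log axis) of each of the 14 probe sets on 15 arrays, in 6 tumours, 6 non-tumorous knockout livers and 3 heterozygous livers. Points are arrays, short lines are group medians, the ring marks tumour 5-1 and the grey band is the range of the arrays' 40th percentiles. Tumour 5-1 stands above all other arrays for H2-Aa, H2-Ab1, H2-Eb1, H2-DMa, Cd74 and both H2-DMb1 or H2-DMb2 probe sets, and heights are not comparable between probe sets.

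Cd74, the invariant chain, had signals of 540.9, 405.7, 3773.5, 1187.9, 486.9 and 934.6 in tumours 3, 4, 5-1, 5-2, 6-1 and 6-2, and of 866, 719, 742, 836, 440.4 and 608.7 in non-tumorous knockout livers 1 to 6, against 381.7, 337.1 and 319.3 in heterozygous livers 1 to 3. Each of the 12 knockout samples was above each heterozygous liver, while tumours and non-tumorous knockout livers overlapped, with tumours 5-1, 5-2 and 6-2 above the highest liver and tumour 4 below the lowest. Cd74 was 2.50-fold higher on average in tumours than in heterozygous livers (limma adjusted p = 0.106, with a log2 change of 1.32 ± 0.47 SE, n = 6 and 3) and 1.96-fold higher in non-tumorous knockout livers than in heterozygous livers (0.97 ± 0.47 SE, n = 6 and 3, adjusted p = 0.334). Neither passed the test across all probe sets, although the groups did not overlap. Between tumours and non-tumorous knockout livers the log2 change of Cd74 was 0.35 with a 95% interval of -0.46 to 1.17 (adjusted p = 0.825), so these data allow a change in either direction.

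H2-Aa, the alpha chain of the A molecule, had 621.9, 277.6, 3651.3, 1444.7, 467.9 and 1051.6 in tumours 3, 4, 5-1, 5-2, 6-1 and 6-2 by probe set 1452431_s_at. The same probe set had 881.4, 718.8, 909.7, 788.3, 478.5 and 707.2 in non-tumorous knockout livers 1 to 6, against 328.8, 271.3 and 331.7 in heterozygous livers. All 6 knockout livers and 5 of 6 tumours exceeded every heterozygous liver, and tumour 4 lay inside the heterozygous range. The log2 change was 1.48 ± 0.51 SE in tumours against heterozygous livers (adjusted p = 0.0951) and 1.22 ± 0.51 SE in non-tumorous knockout livers against heterozygous livers (adjusted p = 0.250, limma, n = 6 and 3). The second H2-Aa probe set, 1435290_x_at, belongs to a class whose probes can bind related sequences, and it had 134.1 to 2609.7 in tumours and 249.1 to 368.4 in non-tumorous knockout livers, against 229.6 to 278.3 in heterozygous livers. It moved less, with a log2 change of 0.96 ± 0.53 SE in tumours and 0.29 ± 0.53 SE in non-tumorous knockout livers, each against heterozygous livers (adjusted p = 0.313 and 0.849).

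H2-Ab1, the beta chain that pairs with H2-Aa, had 203.5, 115.8, 1705.2, 529.4, 187.9 and 327.1 in tumours 3, 4, 5-1, 5-2, 6-1 and 6-2 by probe set 1451721_a_at. The non-tumorous knockout livers 1 to 6 had 330.2, 235.3, 295.2, 283.6, 210.3 and 227.2, against 164, 122.7 and 124.8 in heterozygous livers. As with H2-Aa, every non-tumorous knockout liver lay above every heterozygous liver and tumour 4 was the lowest of the knockout samples. The log2 changes of its 3 probe sets were 1.10 to 1.47 in tumours against heterozygous livers (adjusted p = 0.127 to 0.187) and 0.41 to 0.89 in non-tumorous knockout livers against heterozygous livers (adjusted p = 0.441 to 0.741). The 3 probe sets placed tumour 5-1 highest and tumour 4 lowest among tumours in each case. By 1425477_x_at all 6 non-tumorous knockout livers (145.8 to 249.4) were above the heterozygous livers (82.1 to 107.6). This H2-Ab1 probe set is of the class, described above for H2-Aa, whose probes can bind related sequences. By 1450648_s_at the non-tumorous knockout livers (150.6 to 279.2) overlapped with the heterozygous livers (141.9 to 183.4).

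H2-Eb1, the beta chain of the E molecule, overlapped between all 3 groups. Its signals were 50.4, 40.1, 172.2, 55.7, 51.6 and 59.9 in tumours 3, 4, 5-1, 5-2, 6-1 and 6-2, and 61.5, 48.2, 63.6, 41.5, 32.6 and 21.2 in non-tumorous knockout livers 1 to 6, against 67.1, 17.5 and 45.4 in heterozygous livers. The non-tumorous knockout livers lay inside the range of the heterozygous livers, and the log2 change between them was 0.10 with a 95% interval of -0.72 to 0.92 (adjusted p = 0.934). In tumours against heterozygous livers it was 0.59 (-0.23 to 1.41, adjusted p = 0.411), and 5 of the 6 tumours lay between 40.1 and 59.9. H2-Ea, the alpha chain that pairs with H2-Eb1, had 2.4 to 124.6 in tumours, with the highest in tumour 5-1 and no other tumour above 41.3, 8.8 to 33.7 in non-tumorous knockout livers and 5.2 to 34.6 in heterozygous livers.

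H2-DMa, the alpha chain of the peptide exchange factor, had 90.9, 29.8, 294.5, 94.9, 70.7 and 108.1 in tumours 3, 4, 5-1, 5-2, 6-1 and 6-2, and 88.6, 68, 72.7, 103.2, 58.7 and 66 in non-tumorous knockout livers 1 to 6, against 72, 47.1 and 59.4 in heterozygous livers. All 3 groups overlapped, and the log2 change was 0.60 ± 0.40 SE in tumours against heterozygous livers and 0.31 ± 0.40 SE in non-tumorous knockout livers against heterozygous livers (limma adjusted p = 0.420 and 0.768). The probe sets annotated to both H2-DMb1 and H2-DMb2, its beta chains, were dimmer. Probe set 1418638_at had 21.1, 18.5, 78.8, 37.1, 20.5 and 31 in tumours 3, 4, 5-1, 5-2, 6-1 and 6-2, and 20.8, 31.9, 34.9, 38.6, 2.1 and 26.8 in non-tumorous knockout livers 1 to 6, against 1.4, 2.2 and 4.5 in heterozygous livers. This is the single member probe set that passed the test: it rose in tumours against heterozygous livers by 1.76 ± 0.44 SE on the log2 scale (limma, n = 6 and 3, adjusted p = 0.0232), above every heterozygous liver in 6 of 6 tumours. The heterozygous livers were all below the 40th percentile of their arrays, so the size of this change rests on signals close to background and on the constant added before the logarithm. The probe set passed the filter only through 3 tumours and 3 non-tumorous knockout livers above that percentile. Its distance from heterozygous livers was therefore partly selected by the filter. The call was lost without any 1 of the heterozygous livers (adjusted p = 0.0647 to 0.0950), with tumours and heterozygous livers alone in the fit (0.0679) and with the actin ratio as a covariate (0.473). In non-tumorous knockout livers its log2 change against heterozygous livers was 1.44 ± 0.44 SE (adjusted p = 0.113), with liver 5 inside the heterozygous range.

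The other probe set for H2-DMb1 or H2-DMb2, 1449580_s_at, had 48.6, 20.3, 280.1, 75.1, 20.4 and 80.7 in tumours 3, 4, 5-1, 5-2, 6-1 and 6-2, and 68.7, 31.3, 95, 57.8, 9.8 and 38.1 in non-tumorous knockout livers 1 to 6, against 3.8, 45.9 and 7.1 in heterozygous livers. Heterozygous liver 2 lay within both knockout groups here while it was near 0 by 1418638_at, so the pair of probe sets disagreed on that sample. The log2 change was 1.62 ± 0.64 SE in tumours and 1.20 ± 0.64 SE in non-tumorous knockout livers, each against heterozygous livers (adjusted p = 0.146 and 0.390).

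The H2-O genes were dim. H2-Oa had 15.5, 29.2, 28.9, 11.5, 27.1 and 24.8 in tumours 3, 4, 5-1, 5-2, 6-1 and 6-2, and 19.8, 2.6, 43.6, 31.9, 39.2 and 35.1 in non-tumorous knockout livers 1 to 6, against 2.9, 1.4 and 9.8 in heterozygous livers. The tumours lay above the heterozygous livers without overlap, as did 5 of 6 non-tumorous knockout livers, but most values were near the 40th percentile and neither change passed (log2 1.23 ± 0.43 SE, adjusted p = 0.0996, and 1.35 ± 0.43 SE, adjusted p = 0.128). The probe set exceeded that percentile on 1 tumour, 4 non-tumorous knockout and 0 heterozygous arrays. It was therefore tested only because of knockout samples, and its separation was partly selected. H2-Oa was the only tested member that was lower on average in tumours than in non-tumorous knockout livers (log2 change -0.13, 95% interval -0.86 to 0.61, or 0.013 with no constant added), and tumour 5-1 did not stand out in it. The probe set for H2-Ob or Gm20506 had 4.3 to 25.3 in tumours and 5.2 to 37.5 in non-tumorous knockout livers, against 5.3 to 34.8 in heterozygous livers, with no order among the groups.

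Ciita, the co-activator, had 20.9, 7, 31.5, 29.2, 13.2 and 43.4 in tumours 3, 4, 5-1, 5-2, 6-1 and 6-2 by probe set 1421210_at, and 8.9, 24.2, 30.1, 26.1, 11.4 and 22.9 in non-tumorous knockout livers 1 to 6, against 26.2, 17.7 and 21.3 in heterozygous livers. The groups overlapped fully. By 1421211_a_at it had 4.8 to 41.6 in tumours and 1.9 to 30.4 in non-tumorous knockout livers, against 6.5 to 28 in heterozygous livers. Both probe sets were close to background in these livers, so a difference in Ciita could not be detected here, and the data do not say whether it differed.

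**Figure D2:**
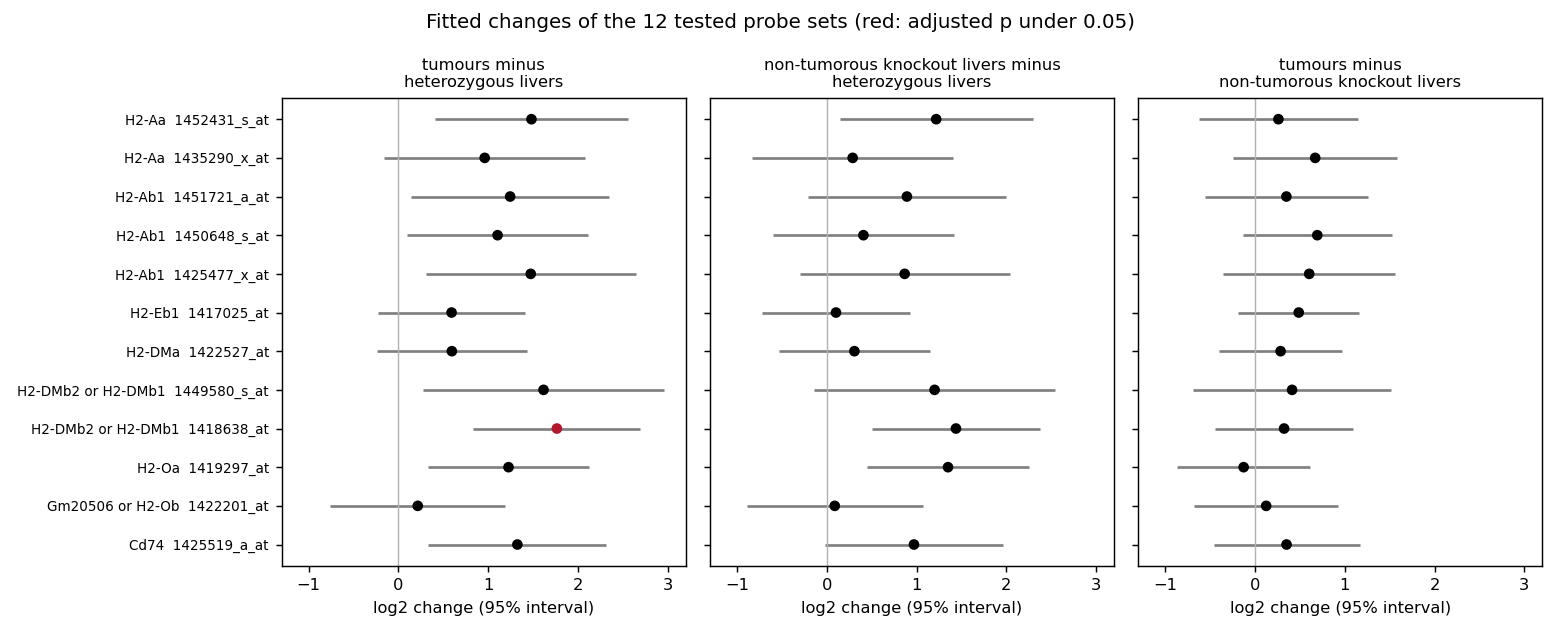
Fitted log2 changes (points) with 95% intervals (lines) of the 12 tested probe sets, for tumours minus heterozygous livers, non-tumorous knockout livers minus heterozygous livers and tumours minus non-tumorous knockout livers. The red point, the H2-DMb1 or H2-DMb2 probe set 1418638_at at 1.76, is the only one with an adjusted p under 0.05, and every interval in the right panel includes 0.

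Part of the outcome depended on which arrays were in the fit. The main fit used a single spread per probe set for all groups. The wide spread of the tumours therefore entered the test of non-tumorous knockout against heterozygous livers as well. For H2-Aa 1452431_s_at the SE of that change was 0.51 in the main fit and 0.17 with these 2 groups alone. With non-tumorous knockout and heterozygous livers alone in the fit, 4 of 12 member probe sets passed, where 9.28% of all probe sets passed. These were H2-Aa 1452431_s_at (log2 change 1.22, adjusted p = 0.000283), H2-Ab1 1451721_a_at (0.89, adjusted p = 0.00261) and 1425477_x_at (0.87, adjusted p = 0.00472), and Cd74 (0.97, adjusted p = 0.00227), the same 4 whose groups did not overlap. Without tumour 4, 3 of 12 passed in tumours against heterozygous livers, where 7.47% of all probe sets passed. Cd74 (1.54, adjusted p = 0.0456) and H2-Aa 1452431_s_at (1.80, adjusted p = 0.0182) were among them. Leaving out this low tumour also raised their changes, which were 1.32 and 1.48 with it. With the actin ratio as a covariate the members' median change against heterozygous livers was 0.30 in tumours and 0.0062 in non-tumorous knockout livers, and 0 of 12 passed in each, where 0.161% and 0.062% of all probe sets passed. The ratios of tumours and of heterozygous livers do not overlap, so the ratio and the group cannot be told apart there.

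The tumours differed from each other in class II far more than the other groups did. For the 7 probe sets above the 40th percentile on every array, the median SD of log2 values was 1.30 among 6 tumours and 0.269 among 6 non-tumorous knockout livers, against 0.182 among 3 heterozygous livers. Over all tested probe sets the same medians were 0.432, 0.299 and 0.259. Without tumour 5-1 the members' median SD among tumours was 0.804, still above the 0.403 of all probe sets. Differences in spread were described and not tested.

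A class II level of each array was taken as the mean log2 value of H2-Aa, H2-Ab1, H2-Eb1 and Cd74, each by its brightest probe set of a single gene. Tumours 5-1 (10.49), 5-2 (8.96) and 6-2 (8.61) had the 3 highest levels of the 15 samples. Tumours 3 (8.01) and 6-1 (7.85) fell among the non-tumorous knockout livers, which ran from 7.73 to 8.53. Tumour 4 (7.36) lay within the range of the heterozygous livers, 7.09 to 7.67. Tumour 4 also had the lowest median signal of an array (35.8), more Abcb4 signal than any other knockout array (681.1) and the highest summed hepatocyte marker signal among tumours (96427), and their part in its class II values was not tested. The lowest of the non-tumorous knockout livers was liver 5, from the mouse that gave the tumours with the highest and second highest levels.

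Within the 4 mice with both tissues, the direction differed between mice. In mouse 5, 11 of 12 tested probe sets were higher in the mean of its tumours than in its own liver, with a median log2 difference of 2.23. In mouse 6, 9 of 12 were higher, with a median of 0.26. In mouse 3, 3 of 12 were higher, with a median of -0.49, and in mouse 4, 1 of 12 was higher, with a median of -0.98. For Cd74 the tumour minus liver difference was 3.07 and 1.41 in tumours 5-1 and 5-2, -0.32 and 0.61 in tumours 6-1 and 6-2, -0.45 in mouse 3 and -1.03 in mouse 4. Matched mice thus gave no common direction, and with 4 mice an exact paired permutation test cannot reach 0.05, so none was run. A limma fit with the mouse as a fixed block in these 4 mice called 0 of 12, but it called 0 of all 16128 probe sets as well, with 0 of 12 and 1206 of 16128 at an unadjusted p under 0.05.

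**Figure D3:**
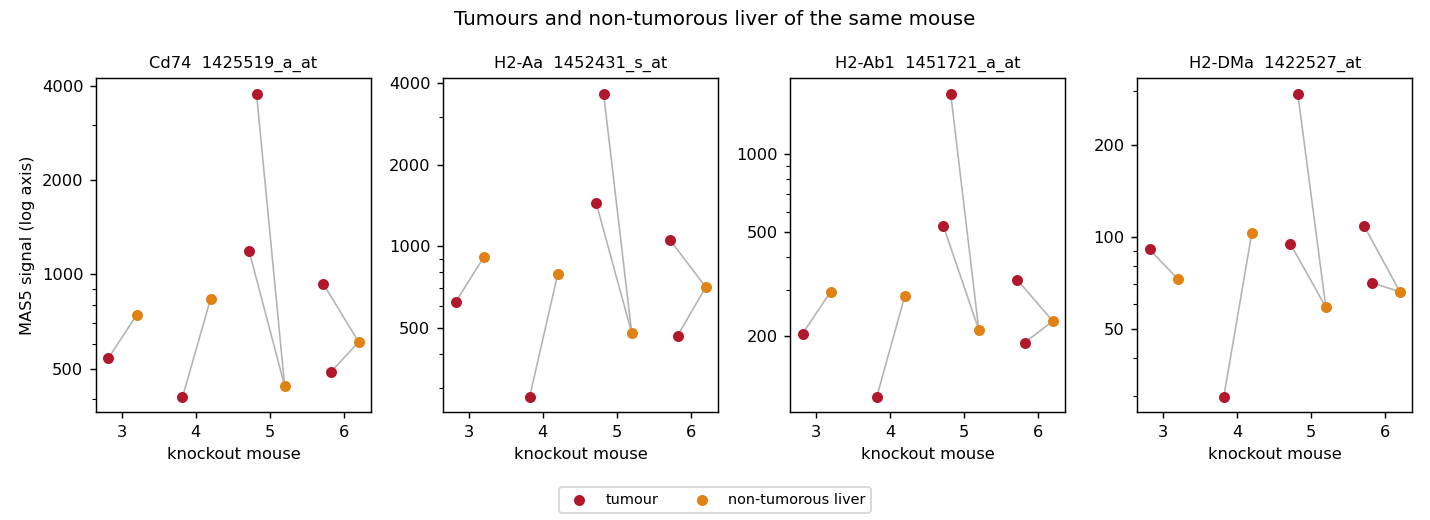
MAS5 signal (log axis) of tumours and of non-tumorous liver in mice 3, 4, 5 and 6, joined within a mouse, for Cd74, H2-Aa, H2-Ab1 and H2-DMa. Both tumours of mouse 5 lie above its liver in each panel, the tumour of mouse 4 lies below its liver in each panel, and the tumours of mouse 6 lie on either side of their liver for Cd74, H2-Aa and H2-Ab1.

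Tumour 5-1 had the highest signal of the 6 tumours in 10 of 12 tested member probe sets, while it was highest in 27.9% of all 16128. It was 3.24-fold (H2-DMa) to 10.2-fold (H2-Ab1 1425477_x_at) above the median of the other 5 tumours in the 7 probe sets detected on every array, and 6.98-fold for Cd74. On the log2 scale its difference from that median was 2.43 at the median of the 12 probe sets and 0.122 at the median of all probe sets. Tumour 5-2 of the same mouse was lower by a factor of 3.18 in Cd74 and 2.53 in H2-Aa 1452431_s_at. Tumour 5-1 also had the highest median signal of an array, 51.2, and the lowest actin ratio, 1.51, and their part in its values was not tested. Without tumour 5-1 the median change of the members was 0.84 in tumours against heterozygous livers (1 of 12 passed, and 6.11% of all probe sets) and 0.048 in tumours against non-tumorous knockout livers (0 of 12 passed, and 0 of all 16128). Against non-tumorous knockout livers, H2-Aa 1452431_s_at (-0.15), H2-Ab1 1451721_a_at (-0.12), H2-DMa (-0.030) and Cd74 (-0.068) then had changes below 0, and none of them passed.

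The main class II genes moved together across samples. Over the 15 arrays, Pearson's r of log2 values was 0.982 between Cd74 and H2-Ab1, 0.976 between Cd74 and H2-Aa and 0.975 between H2-Aa and H2-Ab1, and without tumour 5-1 these were 0.954, 0.965 and 0.971. H2-DMa followed them less closely, with 0.888 to 0.914, or 0.722 to 0.783 without tumour 5-1. H2-Eb1 had 0.696 to 0.751 with Cd74, H2-Aa and H2-Ab1, and 0.403 to 0.432 without tumour 5-1, so most of its likeness lay in that tumour. H2-Oa had 0.298 to 0.347 with H2-Aa, H2-Ab1 and Cd74, and Ciita 1421210_at had 0.462 to 0.533, both from dim signals. These values describe 15 arrays that share groups and mice, and carry no test.

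The genes outside the set whose log2 values were most like the class II level over the 15 arrays were Mcl1 (r = 0.945), an inhibitor of apoptosis, Cd52 (0.939), a surface peptide of leukocytes, Oxct1 (0.928), an enzyme of ketone body use, and Serpinb6a (0.913), an intracellular protease inhibitor. They were followed by Irf8 (0.912), a transcription factor of macrophages and dendritic cells, Csf2ra (0.912), the receptor chain for GM-CSF, Coro1a (0.911), an actin-binding protein of leukocytes, and Gbp2 (0.911), a GTPase induced by interferon gamma. With group means taken out the 8 values were 0.878 to 0.927. Without tumour 5-1 they were 0.757 to 0.900, and that tumour had the highest signal of each of the 8 genes, for example 522.4 of Cd52 against at most 214.1 in the other tumours.

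Around the class II genes, a list for peptide loading and processing was examined, with 1 probe set per gene, the brightest, in the same fit. It held cathepsins, Lgmn and Ifi30, and also Lamp1, Lamp2, Cyba and Cybb, which do not cut antigen or invariant chain. Of 12 tested genes of this list, 3 rose in tumours against heterozygous livers and 0 fell (background of genes 3.85% higher and 2.9% lower). These were Cybb (log2 change 2.49 ± 0.57 SE, adjusted p = 0.0147) and Cyba (1.63 ± 0.37, adjusted p = 0.0135), subunits of the phagocyte oxidase, and Ctsl (0.76 ± 0.17, adjusted p = 0.0140), a cathepsin that trims the invariant chain in some cells. Among the cathepsins only Ctsl passed in this comparison. In non-tumorous knockout livers 2 rose against heterozygous livers (Cyba and Ctsl) and 0 fell (1.5% higher and 0.325% lower), and without tumour 5-1 the counts that rose were 4 in tumours and 3 in non-tumorous knockout livers. In tumours against non-tumorous knockout livers 0 changed (0.021% higher and 0.115% lower), with 0 higher and 1 lower at an unadjusted limma p under 0.05. Ctss, the main cathepsin for the invariant chain in macrophages and dendritic cells, had 240.2 to 1896.3 in tumours and 519.9 to 979.2 in non-tumorous knockout livers, against 294.6 to 456.9 in heterozygous livers, and did not pass.

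Of the 6 tested partners of Cd74, 3 rose in tumours against heterozygous livers and 0 fell, where 3.85% of all genes passed as higher. At an unadjusted limma p under 0.05, 4 were higher in this comparison and 1, Ddt, was lower (log2 change -0.67). In non-tumorous knockout livers against heterozygous livers 0 passed and 3 were higher at an unadjusted limma p under 0.05, and in tumours against non-tumorous knockout livers there were 0 by either rule. Those that rose in tumours were Mif, a cytokine that binds Cd74 (log2 change 1.04 ± 0.24 SE, adjusted p = 0.0139), its co-receptor Cd44 (1.38 ± 0.38, adjusted p = 0.0358) and the chemokine receptor Ackr3 (1.33 ± 0.38, adjusted p = 0.0445). Without tumour 5-1, 1 of the 6 passed in tumours against heterozygous livers. None of the 13 tested genes listed as factors of the class II promoter passed in any comparison. Among them were Rfx5 and the Nfy subunits, but also the repressors Prdm1 and Ezh2. Without tumour 5-1, 1 of the 13 fell in tumours against heterozygous livers. None of the 13 tested genes of the interferon gamma pathway to Ciita passed either, and Ifng itself, with 1.1 to 17.6 in the tumours other than 5-1 and 2.6 in tumour 5-1, was too dim to test, as were Irf4 and Socs1. Beside these counts of 0, limma at an unadjusted p under 0.05 gave 2 promoter factors lower, and 2 genes of the interferon pathway higher and 1 lower, in tumours against heterozygous livers. In non-tumorous knockout livers against heterozygous livers it gave 1 lower in each list, and in tumours against non-tumorous knockout livers 0.

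MHC class I presents peptides from inside the cell. Of 12 tested genes only Tap2, a subunit of the peptide transporter, rose, in tumours against heterozygous livers (log2 change 1.18 ± 0.23 SE, adjusted p = 0.00503) and in non-tumorous knockout livers against heterozygous livers (1.03 ± 0.23, adjusted p = 0.0289). H2-K1 had a change of 0.33 and B2m of -0.030 in tumours against heterozygous livers, and neither passed. At an unadjusted limma p under 0.05, 5 of the 12 were higher in tumours and 3 in non-tumorous knockout livers, each against heterozygous livers. The median change of the 12 genes was 0.37 in tumours and 0.27 in non-tumorous knockout livers, each against heterozygous livers. In tumours against non-tumorous knockout livers none passed, and 1 was higher and 2 were lower at an unadjusted limma p under 0.05. Of the 6 tested co-stimulation and checkpoint genes none passed in any comparison. At an unadjusted limma p under 0.05, 3 were higher and 1 lower in tumours against heterozygous livers, 1 was lower in non-tumorous knockout livers against heterozygous livers, and 0 differed between tumours and non-tumorous knockout livers. Of the other genes of the class II region, H2-Ea, Brd2 and H2-DMb2 by a probe set of its own did not pass (limma, 1 higher at an unadjusted p under 0.05, in non-tumorous knockout against heterozygous livers).

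Markers of the cells that carry class II were measured on the same arrays. Of 18 tested macrophage and Kupffer cell markers, 6 rose in tumours against heterozygous livers: Cd68 (log2 change 1.97), Mpeg1 (1.96), Lyz2 (1.93), Tyrobp (1.44), C1qa (1.41) and C1qb (1.23), with limma adjusted p from 0.000177 to 0.0480. Of all genes, 3.85% passed as higher in this comparison. While 12 of the 18 markers were higher on average, the Kupffer cell markers Clec4f (-0.83), Cd5l (-0.66) and Vsig4 (-0.42) were among those lower, and none of these passed. In non-tumorous knockout livers against heterozygous livers Lyz2 (2.06) and Cd68 (1.67) rose, where 1.5% of all genes passed as higher. Without tumour 5-1, 4 macrophage markers rose in tumours and 5 in non-tumorous knockout livers, each against heterozygous livers. The summed signal of the 20 markers was 2126.2 to 12417.5 in tumours and 5127.1 to 8213.8 in non-tumorous knockout livers, against 3523.1 to 3890.6 in heterozygous livers. Among 10 markers of all leukocytes, Arhgdib (1.57), Ptprc (1.55) and Cd53 (1.41) rose in tumours and Arhgdib (1.82) in non-tumorous knockout livers, each against heterozygous livers, with a summed signal of 907.4 to 3790.6 in tumours and 1022.1 to 1858.2 in non-tumorous knockout livers, against 921.5 to 1034.1 in heterozygous livers. Without tumour 5-1, 2 leukocyte markers rose in each comparison. Tumour 4 had the lowest sum of both lists, and tumour 5-1 the highest. Of 9 tested dendritic cell markers none passed (at an unadjusted limma p under 0.05, 1 was higher in tumours, and 1 higher and 1 lower in non-tumorous knockout livers, each against heterozygous livers), and Xcr1, Ccr7, Ly75 and Ccl22 were too dim to test. The summed signal of the 13 dendritic cell markers was 224.6 to 1284.6 in tumours and 710 to 977 in non-tumorous knockout livers, against 761.3 to 893.3 in heterozygous livers. Much of this sum came from 1 gene, Dpp4. It had 5 to 544.4 in tumours and 382.9 to 589.3 in non-tumorous knockout livers, against 415.7 to 495.7 in heterozygous livers. Of 7 tested B cell and plasma cell markers only Ighm changed, and it fell by 1.11 on the log2 scale in tumours against heterozygous livers, while Cd79b, Pax5, Cd37 and Pou2af1 were dim. The summed signal of the 11 B cell and plasma cell markers was 238.2 to 485.2 in tumours and 400.8 to 533.5 in non-tumorous knockout livers, against 365.5 to 533.8 in heterozygous livers. Of 14 T and NK cell markers 10 were dim, among them Cd3d, Cd3e, Cd3g and Cd4, and none of the other 4 passed (limma, 1 lower at an unadjusted p under 0.05, in non-tumorous knockout against heterozygous livers). Thus 6 of 18 macrophage and 3 of 10 leukocyte markers rose in tumours against heterozygous livers (3.85% of all genes), where class II averages were higher as well. The part of these markers in the class II differences was not tested.

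Markers of other liver cells were taken as well. Of 7 tested bile duct markers only Cdh1, which is not confined to bile ducts, passed. It rose in tumours (log2 change 1.09) and in non-tumorous knockout livers (1.97), each against heterozygous livers, where 3.85% and 1.5% of all genes passed as higher. The defining keratins Krt7 and Krt19 did not pass, and without tumour 5-1 none passed in tumours against heterozygous livers. At an unadjusted limma p under 0.05, 1 marker was higher in tumours, and 2 were higher and 1 lower in non-tumorous knockout livers, each against heterozygous livers. In tumours against non-tumorous knockout livers 3 were lower by that rule (Krt19, Cldn7 and Cdh1). Of 10 endothelial markers only Emcn rose in tumours against heterozygous livers (1.81), where 3.85% of all genes passed as higher. In this comparison 5 of the 10 were higher on average, and in the other comparisons none passed. At an unadjusted limma p under 0.05, 2 were higher in tumours and 3 in non-tumorous knockout livers, each against heterozygous livers. In tumours against non-tumorous knockout livers 1 was higher and 4 were lower by that rule. Of 10 hepatocyte markers Tat fell by 1.76 and Apoa1 fell by 0.54 on the log2 scale in tumours against heterozygous livers, where 2.9% of all genes passed as lower. Summed hepatocyte signal was 76748 to 96427 in tumours and 86622 to 111218 in non-tumorous knockout livers, against 107013 to 117023 in heterozygous livers, so the tissue held abundant hepatocyte RNA in every sample.

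**Figure D4:**
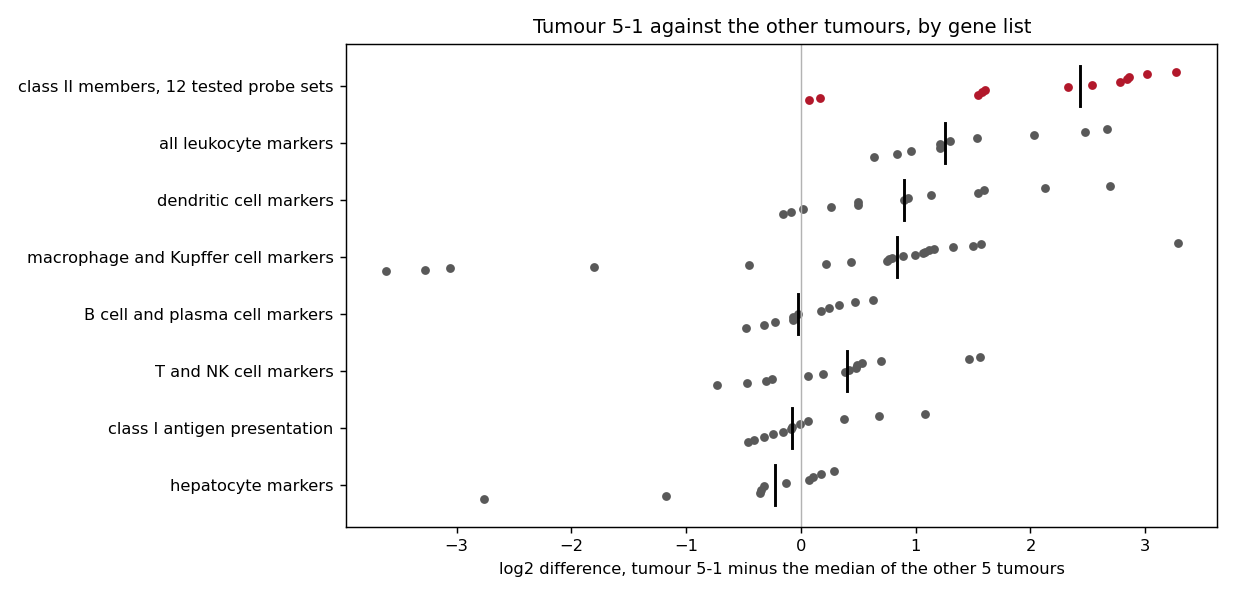
Log2 difference of tumour 5-1 from the median of the other 5 tumours, for the 12 tested class II probe sets (red) and for the genes of 7 marker and pathway lists (grey), with 1 point per probe set or gene and a bar at each median. The class II median is 2.43 and that of leukocyte markers 1.26, and dendritic cell (0.90), macrophage (0.84) and T and NK cell (0.40) medians are above 0. Class I (-0.082), B cell (-0.028) and hepatocyte (-0.22) medians are below 0.

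In tumour 5-1 all 10 leukocyte markers were the highest of the 6 tumours, such as Ptprc with 566.6 against at most 223.5 in the others. Macrophage markers split. Csf1r (2477 against at most 1465) and Cx3cr1 (192.6 against at most 25.5) were highest in it, and so was Itgax, a marker of dendritic cells and some macrophages (341.7 against at most 91.8). By count, 10 of 20 macrophage and Kupffer cell markers and 8 of 13 dendritic cell markers, some of them dim, were highest of the tumours in it. The same held for 27.9% of all tested probe sets. The Kupffer cell markers Clec4f, Vsig4 and Cd5l were lowest in it, at 28.4, 41.8 and 46.2, against 36.7 to 1175 for Clec4f, 63.3 to 1022 for Vsig4 and 128.1 to 908.1 for Cd5l in the other tumours. Summed B cell markers (375.7 against 238.2 to 485.2) and T and NK cell markers (348.4 against 229.1 to 379.3) were within the range of the others. Of the 16 measured genes listed for the interferon gamma pathway to Ciita, 8 were highest of the tumours in tumour 5-1 (27.9% of all tested probe sets). Examples are Socs3 (678.2 against at most 97.2) and Cxcl10 (175.1 against at most 43.8), while Cxcl9 was not highest (86.8 against 48.5 to 196.4). The list also holds inhibitors such as Socs3 and targets such as Cxcl9 and Cxcl10, so this count does not describe the path to Ciita alone. Of the 13 genes listed as promoter factors, 6 were highest in it too: Rfx5, Rfxap, Nfya, Crebbp, Prdm1 and Ezh2. Prdm1 and Ezh2 are known as repressors, so this is not a count of activators. Nfyb was lowest of the tumours in it (51.1 against 71.4 to 160). The genes named here were picked after their values had been seen, and a single tumour gives no replicate of this pattern.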

How the data were processed

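Liver RNA of 15 samples was measured on Affymetrix arrays. The authors deposited signals of intensity per probe set on a linear scale, made with MAS5 per the submitters' processing notes, with no version given in the sources used here; equal trimmed means (2% off each end) show that arrays had been scaled. MAS5 subtracts mismatch signal, so dim values scatter widely. Of 22690 probe sets 64 controls were left out, and genes came from the platform annotation.

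Here, 9.1, the 20th percentile of all signals, was added before taking log2, and 16128 probe sets that exceeded an array's 40th percentile on 3 or more arrays were tested, and all arrays were fitted with limma 3.58.1 (lmFit, eBayes with trend; R 4.3.3, statmod 1.5.0). The mouse was a random block (consensus correlation -0.0127), with pairing taken from the labels: tumours and livers of the same mouse correlated at -0.16 to 0.086 after group means were removed. Benjamini-Hochberg adjustment ran over all 16128, at 0.05. The fit was tested on simulated data. Every member probe set is named, and of other lists the largest called changes or the brightest gene, except where stated. Members and lists were chosen with earlier results of these data known. The labels do not say how samples were batched. The p-values rest on the spread between these samples, pooled over all groups in the fit.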

Additional observations from a re-analysis of the deposited data

Results flagged for a closer look

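Among 28 groups of 6 samples, 3 samples lay apart from the rest of their group by Dixon's ratio of gap to range (above 0.625 for 6 samples), where chance gives about 1 in 20. The ratios were taken on log2(signal + 9.1). They do not follow from the linear signals printed here, and linear signals would not flag the same samples. H2-Eb1 in tumour 5-1 had a ratio of 0.741, with a signal of 172.2 against at most 59.9 in the other tumours. The H2-DMb1 or H2-DMb2 probe set 1418638_at in non-tumorous knockout liver 5 had a ratio of 0.678 at the low end, with a signal of 2.1 against at least 20.8 in the other livers. The probe set of H2-Ob or Gm20506 in tumour 6-2 had a ratio of 0.774 at the low end, with a signal of 4.3 against at least 18.7 in the other tumours. The last 2 are signals below the 40th percentile of their arrays.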

How the results depend on the processing

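Calls on members were few under most settings. In tumours against heterozygous livers 1 of 12 probe sets passed, and 0 passed with a stricter filter (8 tested, the called one left out), with the 2 groups alone in the fit, with 1 probe set per gene (6 tested, shared probe sets not included) and with the actin ratio as a covariate; leaving out 1 array gave 0 to 3 (0 without heterozygous liver 1, 2 or 3, 2 without non-tumorous liver 2, 3 without tumour 4). In non-tumorous knockout against heterozygous livers 0 passed, 4 passed with the 2 groups alone in the fit, and leaving out 1 array gave 0 to 1 (H2-Oa without liver 2, 1.66, adjusted p = 0.0283, and 1418638_at without liver 5, 1.76, adjusted p = 0.0210). In tumours against non-tumorous knockout livers 0 passed under all settings, with 0 to 0 on leaving out 1 array. The paired analysis, with the mouse as a fixed replicate block in 4 matched mice, gave 0, and no replicate block gave 1, 0 and 0 in the 3 comparisons. No called change reversed. Of changes that were not called, 17 turned sign under at least 1 setting, in 24 instances, of which 10 were with the actin covariate and 4 without tumour 5-1. Over all probe sets, 1026, 293 and 20 passed in the 3 comparisons; with the actin covariate these were 26, 10 and 0, with 2 groups alone 224, 1497 and 0, and without single arrays 380 to 1204, 73 to 477 and 0 to 119. The cause was not tested. Dim signals limit Ciita, H2-O and the H2-DMb probe sets.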
